A study of Mus musculus with 20 samples.

Results

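The p53 target genes described here are *Cdkn1a*, *Mdm2*, *Ccng1*, *Bax*, *Phlda3*, *Trp53inp1*, *Eda2r*, *Aen*, *Zmat3* and *Sesn1*, which were picked by gene symbol as widely used readouts of p53 activity. All 10 were found among the 50559 genes of the count table, and all 10 passed the filter on low counts in each comparison. RNA was sequenced from 20 mouse livers, 5 in each of 4 groups, and every mouse carried the floxed allele *Cideb* fl/fl. The WT mice were given AAV-TBG-GFP, and the KO mice AAV-TBG-Cre, a vector in which the hepatocyte promoter TBG drives Cre, so the deletion was directed at hepatocytes and not at the other cells of the liver. Each vector was combined with a western diet rich in fat, sugar and cholesterol (WD) or with a high-fat diet that lacks choline and has defined amino acids (CDA-HFD), both for 3 months by the labels. The study's main text does not give the sex of the sequenced mice, and the labels give no age. It describes such C57BL/6 mice, male and female, as injected when young adults and kept longer on WD than on CDA-HFD. Diet therefore cannot be told apart from time on diet or from any other difference between the 2 feedings. Each sample is labelled as its own liver, so n counts livers.

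p53, encoded by *Trp53* in the mouse, is a transcription factor that is held at a low level by the ubiquitin ligase Mdm2 and accumulates when DNA damage, oncogene activity, ribosomal stress or metabolic stress blocks its degradation. It then binds paired decamers near its target genes and raises a program that stops the cell cycle, repairs DNA, triggers apoptosis or limits growth signaling, and 1 of its targets is *Mdm2* itself, which closes a feedback loop. In the liver, p53 and p21, the product of *Cdkn1a*, are known for their part in hepatocyte stress during steatohepatitis, in senescence and in the control of hepatocyte proliferation.

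The sequences shown first are matches to the p53 element near the starts of 6 of these genes, since p53 acts on its targets through such elements. Promoter windows from 250 bases before to 50 bases after an annotated start were taken from RefSeq (GRCm38.p6), and 8 of the 10 members had entries there, with 11 windows in all. *Trp53inp1* and *Zmat3* had none. Each strand reading of the p53 decamer is the same motif, 3 purines, a C, 2 bases that are A or T, a G and 3 pyrimidines, so a search of 1 strand covers the other. A site of 2 decamers was scored with a spacer of up to 2 bases and up to 3 mismatches in all, with the C and G of each decamer intact. Capitals mark the 4 core bases of each decamer.
Cdkn1a: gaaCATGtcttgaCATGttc
Ccng1: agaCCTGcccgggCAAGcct
Bax: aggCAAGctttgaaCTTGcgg
Aen: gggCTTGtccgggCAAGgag
Sesn1: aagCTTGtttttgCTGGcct
Mdm2: gaaCTTGcct
The *Cdkn1a* site (chr17:29090928-29090947, plus strand) begins at position -51 from the start of the window's transcript and has 1 mismatch. That of *Ccng1* (chr11:40755462-40755481, minus strand) begins at -195 with 1 mismatch, and that of *Bax* (chr7:45467079-45467099, minus strand) at -201 with 2 mismatches and a spacer of 1 base. The sites of *Aen* (chr7:78895937-78895956, plus strand) and *Sesn1* (chr10:41887266-41887285, plus strand) have 3 mismatches each. The *Sesn1* site begins at -173 from a start that lies inside the gene model. The *Aen* site lies at -121 from 1 annotated start and at 11 from the other. The other *Cdkn1a* window, with its upstream bases at chr17:29093519-29093768, had no site or decamer. *Mdm2* (chr10:117710935-117710944, minus strand) has a single decamer at -186, and the windows of *Phlda3* and *Eda2r* had neither form. Among all 27025 genes with a window, 4.94% had a site of 2 decamers by this rule and 9.55% a decamer without mismatch. A match is a description of letters, and p53 binding was not measured in these livers.

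The reads on genes numbered 11697049 to 16827147 in each liver, and levels are given as CPM, the read count scaled to the library's total after TMM normalization over the 20 livers. *Cideb* had 35 to 100 reads in WT livers and 0 to 6 in KO livers, so the vector labels hold in every liver (edgeR log2 fold change -5.12 on WD and -4.19 on CDA-HFD). Hepatocyte markers were high in all groups, with *Alb*, the serum albumin gene, at 42257 to 73911 CPM in WT livers on WD. KO liver 5 on CDA-HFD stood apart from the other KO livers of its group: its summed level of 10 stellate cell markers was 3069.6 CPM, against 618 to 875 CPM in the other 4, and that of 8 cholangiocyte markers was 660.4 CPM against 72.7 to 177 CPM. The calls of the members and the counts of the gene lists that rest on this group are therefore given with and without it, and the list counts without it were added after seeing the data. In whole liver, fewer cells of a type and less RNA per cell cannot be told apart.

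Levels between genes were compared per kb of annotated exon. In WT livers on WD, *Trp53inp1*, which encodes a stress protein of autophagy and apoptosis, had the highest level with 29.4 ± 14 CPM per kb (SD, n = 5). It was followed by *Ccng1*, the cyclin G1 gene, at 21.6 ± 4.76 CPM per kb (SD, n = 5) and by *Mdm2* at 10.3 ± 1.58 CPM per kb (SD, n = 5). *Cdkn1a* at 9.41 ± 4.83 CPM per kb (SD, n = 5) and *Bax* at 7.80 ± 1.22 CPM per kb (SD, n = 5) came next, and both overlapped with *Mdm2* between livers, as *Trp53inp1* and *Ccng1* overlapped with each other. Every liver was higher for *Ccng1* than any was for *Mdm2*. *Sesn1* stood at 5.12 ± 0.50 CPM per kb (SD, n = 5), below every liver's value for *Bax*. The lowest 4 were *Zmat3*, *Aen*, *Phlda3* and *Eda2r*, between 2.81 and 1.56 CPM per kb on average, and each overlapped with its neighbor. The spread between livers also differed by gene: in WT livers on WD the coefficient of variation was 51.4% for *Cdkn1a* and 47.5% for *Trp53inp1*, against 9.77% for *Sesn1* and 15.4% for *Mdm2*. Of the exon bases of *Bax*, 12.2% are shared with the predicted gene *Gm45808* on the same strand, and 7.68% of those of *Cdkn1a* with *AC167363.2* on the opposite strand, so reads there cannot be assigned to 1 gene with certainty. Gene positions are those of GENCODE models on GRCm38.

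**Figure D1:**
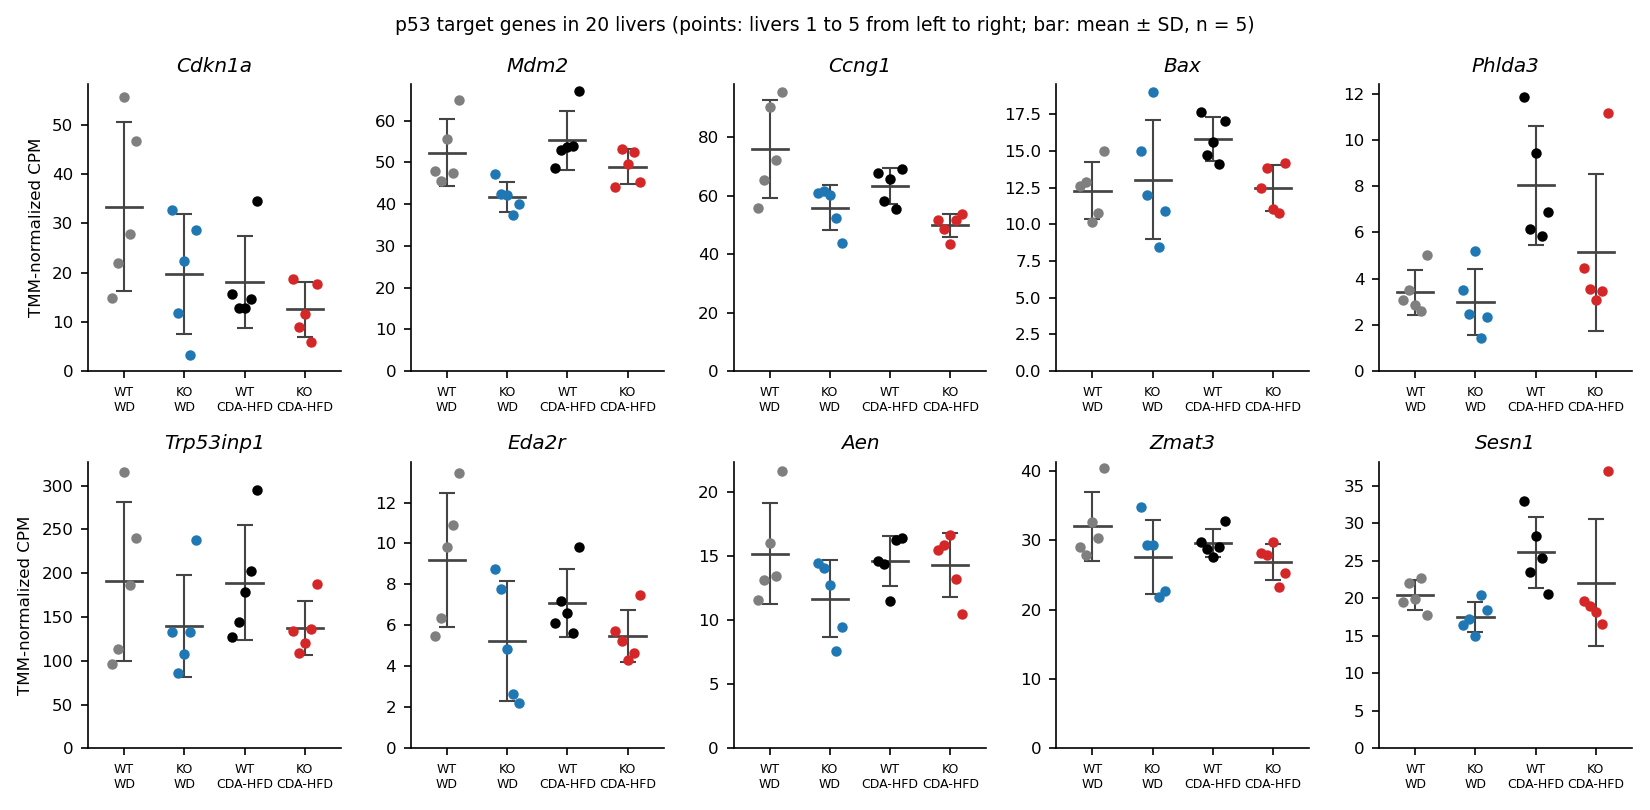
Level of the 10 p53 target genes in each of the 20 livers, in TMM-normalized CPM on linear axes that start at 0. Points are livers 1 to 5 of a group from left to right, and bars give the mean ± SD (n = 5). *Ccng1* is lower in every KO liver on CDA-HFD than in any WT liver on that diet, *Phlda3* is higher in every WT liver on CDA-HFD than on WD, and KO liver 5 on CDA-HFD is far above its group for *Phlda3* and *Sesn1*.

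KO was compared with WT livers on WD to ask whether loss of *Cideb* in hepatocytes moved the p53 targets on this diet. By edgeR's quasi-likelihood test with Benjamini-Hochberg adjustment over 15848 genes, 0 of the 10 members passed the threshold of 0.05, where 0.0757% of all genes did. Without adjustment, 2 members had a p under 0.05, against 10.7% of all genes. DESeq2 called 0 members, where it called 164 of 15848 genes. The log2 fold change was negative for 9 members and positive for 1, with a median of -0.35 against 0.012 over all genes. In 0 members were the groups free of overlap, as they were for 2.22% of all genes. None of the tested markers of hepatocytes, macrophages, stellate cells, cholangiocytes, endothelial cells, lymphocytes or neutrophils passed on WD. Their median log2 fold change was -1.33 for 3 neutrophil, -0.52 for macrophage, -0.40 for stellate cell and -0.024 for endothelial markers. It was 0.20 for hepatocyte, 0.15 for cholangiocyte and 0.30 for 4 lymphocyte markers. The part of these markers in the member values was not tested.

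The feedback genes came closest to the threshold. *Mdm2* (chr10:117688875-117710758, minus strand), the ubiquitin ligase that targets p53, was at 48.0, 45.6, 55.5, 47.4 and 65.0 CPM in WT livers 1 to 5 on WD and at 47.2, 42.4, 42.1, 37.5 and 40.0 CPM in KO livers 1 to 5. Of the KO livers, 4 lay below the lowest WT liver and KO liver 1 lay among the WT livers (log2 fold change -0.32, SE 0.11, edgeR adjusted p = 0.319, exact two-sided permutation p = 0.0159). *Ccng1* (chr11:40748552-40755311, minus strand), a p53-induced cyclin that recruits a phosphatase to Mdm2, was at 55.9, 65.3, 90.5, 72.3 and 95.5 CPM in WT livers and at 61.0, 61.8, 60.2, 52.3 and 43.9 CPM in KO livers. All 5 KO livers were below the WT mean and 2 were below the lowest WT liver (log2 fold change -0.44, SE 0.15, edgeR adjusted p = 0.325, exact permutation p = 0.0476). The exact tests were two-sided over all arrangements of 5 livers against 5, for which the smallest possible p is 0.00794.

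*Cdkn1a* (chr17:29090976-29100727, plus strand), the inhibitor of cyclin-dependent kinases that carries out p53-driven arrest, had the widest spread on WD. It was at 14.9, 21.9, 55.6, 27.9 and 46.9 CPM in WT livers 1 to 5 on WD and at 32.7, 11.9, 22.4, 3.19 and 28.6 CPM in KO livers 1 to 5. WT livers 3 and 5 were the highest of the 20, KO liver 4 was the lowest, and the groups overlapped (log2 fold change -0.77, SE 0.50, edgeR adjusted p = 0.605, exact permutation p = 0.190). WT livers 3 and 5 also had the most reads of their group, 16196554 and 15228865, but KO liver 4 had the most reads of its own group, 15376322, and the part of depth was not tested.

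Among the apoptosis genes, *Eda2r* (chrX:97333840-97377216, minus strand), a receptor of the TNF family that binds an ectodysplasin, had the most negative value on WD. It ranged from 5.49 to 13.4 CPM in WT and from 2.19 to 8.74 CPM in KO livers, with 3 KO livers below the lowest WT liver (log2 fold change -0.82, SE 0.38, edgeR adjusted p = 0.465). *Trp53inp1* (chr4:11156431-11174379, plus strand) ranged from 96.7 to 315 CPM in WT livers versus 86.3 to 238 CPM in KO livers (log2 fold change -0.45, SE 0.34, edgeR adjusted p = 0.654). *Aen* (chr7:78895854-78911209, plus strand), an exonuclease that degrades DNA in apoptosis, ranged from 11.6 to 21.7 CPM in WT livers versus 7.60 to 14.4 CPM in KO livers (log2 fold change -0.38, SE 0.21, edgeR adjusted p = 0.535). All 3 overlapped between the groups. *Bax* (chr7:45461697-45466898, minus strand), which forms pores in the outer mitochondrial membrane, was the only member with a positive value, and its KO livers spread on both sides of the WT livers, from 8.43 to 19.0 CPM against 10.1 to 15 CPM (log2 fold change 0.081, SE 0.19, edgeR adjusted p = 0.918).

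The remaining members act on growth signaling and RNA. *Phlda3* (chr1:135766119-135769136, plus strand), a repressor of Akt at the membrane, ranged from 2.58 to 5.04 CPM in WT livers versus 1.44 to 5.22 CPM in KO livers on WD (log2 fold change -0.21, SE 0.31, edgeR adjusted p = 0.850). *Sesn1* (chr10:41809935-41908424, plus strand), a sestrin that restrains mTOR signaling, ranged from 17.8 to 22.7 CPM in WT livers versus 15 to 20.4 CPM in KO livers (log2 fold change -0.21, SE 0.11, edgeR adjusted p = 0.499). *Zmat3* (chr3:32334792-32366014, minus strand), a zinc finger protein that binds RNA, ranged from 27.9 to 40.4 CPM in WT livers versus 21.8 to 34.8 CPM in KO livers (log2 fold change -0.22, SE 0.14, edgeR adjusted p = 0.601). None of these differences passed the adjusted test.

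On CDA-HFD, all 10 log2 fold changes were negative, with a median of -0.35 against 0.0050 over all genes, and *Ccng1* fell in KO livers. It was 1 of the 10 members past the threshold and the call was toward lower levels, where 15.5% of 17204 genes passed in either direction and 7.29% were lower. Every KO liver lay below every WT liver for *Ccng1*, as was so for 4.53% of all genes tested. The share of members called was therefore near that of all genes. Without adjustment 2 members had a p under 0.05, against 35.3% of all genes. DESeq2 called *Ccng1* and *Bax* lower, where it called 4146 of 17204 genes, 2243 of them higher.

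*Ccng1* was at 67.7, 58.1, 65.8, 55.5 and 69.2 CPM in WT livers 1 to 5 on CDA-HFD and at 51.8, 48.7, 43.6, 51.7 and 53.6 CPM in KO livers 1 to 5. The highest KO liver stayed below the lowest WT liver, and the means were 63.3 ± 6.11 CPM and 49.9 ± 3.95 CPM (SD, n = 5 each). The difference had a log2 fold change -0.35, SE 0.087, edgeR adjusted p = 0.0268, and the exact permutation p was 0.00794, the smallest this design can give. The call was lost without WT liver 1, 3 or 5 or KO liver 1, 2 or 3, with an adjusted p from 0.0594 to 0.0751 and a log2 fold change from -0.36 to -0.30 in these fits. It passed without KO liver 5 (-0.37, adjusted p = 0.00774 from edgeR). *Mdm2*, its partner in the feedback loop, was at 48.7, 52.9, 53.7, 54.0 and 67.2 CPM in WT and at 44.1, 53.3, 49.7, 52.6 and 45.2 CPM in KO livers, and WT liver 5 stood above all the others (log2 fold change -0.18, SE 0.099, edgeR adjusted p = 0.214, and -0.15 without KO liver 5, adjusted p = 0.257).

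*Bax* missed the threshold with all livers. It was at 17.7, 14.7, 15.6, 14.1 and 17.0 CPM in WT livers 1 to 5 on CDA-HFD and at 12.5, 13.8, 11, 10.8 and 14.2 CPM in KO livers 1 to 5, and 4 of the 5 KO livers lay below the lowest WT liver (log2 fold change -0.35, SE 0.11, edgeR adjusted p = 0.0541, exact permutation p = 0.0159). *Cdkn1a* was at 15.7, 12.8, 12.9, 14.6 and 34.6 CPM in WT and at 18.8, 9.0, 11.5, 5.88 and 17.8 CPM in KO livers. WT liver 5 was the highest, KO livers 1 and 5 lay above WT livers 1 to 4, and 3 KO livers lay below every WT liver (log2 fold change -0.53, SE 0.36, edgeR adjusted p = 0.309, and -0.69 without KO liver 5, adjusted p = 0.153).

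*Phlda3* and *Sesn1* turned on KO liver 5. *Phlda3* was at 11.9, 6.13, 9.44, 5.84 and 6.90 CPM in WT livers 1 to 5 and at 4.46, 3.55, 3.06, 3.46 and 11.2 CPM in KO livers 1 to 5, so KO livers 1 to 4 were below every WT liver and KO liver 5 was within the WT range. With all livers its log2 fold change was -0.65 (SE 0.36, edgeR adjusted p = 0.223), and without KO liver 5 it was -1.15 (SE 0.23, adjusted p = 0.00276). *Sesn1* was at 33.0, 23.5, 28.3, 25.4 and 20.6 CPM in WT and at 19.6, 18.9, 18.2, 16.5 and 37.0 CPM in KO livers, where KO livers 1 to 4 were again below every WT liver and KO liver 5 was above every one. Its log2 fold change was -0.25 with all livers (adjusted p = 0.433 from edgeR) and -0.51 without KO liver 5 (adjusted p = 0.00921).

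Without KO liver 5, 6 members passed and all 6 were lower in KO livers, where 21.8% of 17411 genes passed in that direction and 41.4% in either. Beside *Ccng1*, *Phlda3* and *Sesn1* these were *Bax* (log2 fold change -0.40, adjusted p = 0.0152 from edgeR), *Trp53inp1* (-0.60, adjusted p = 0.0403) and *Eda2r* (-0.51, adjusted p = 0.0402). With all livers, *Trp53inp1* ranged from 127 to 295 CPM in WT livers versus 109 to 188 CPM in KO livers (log2 fold change -0.47, SE 0.22, edgeR adjusted p = 0.161), and *Eda2r* from 5.64 to 9.84 CPM and 4.32 to 7.50 CPM (log2 fold change -0.37, SE 0.19, edgeR adjusted p = 0.192). *Aen* was the member nearest to 0, with 14.6 ± 1.98 CPM in WT livers versus 14.3 ± 2.49 CPM in KO livers (5 livers each, SD; log2 fold change -0.034, SE 0.15, edgeR adjusted p = 0.889), and it was at 0.062 without KO liver 5. *Zmat3* ranged from 27.6 to 32.9 CPM in WT livers versus 23.2 to 29.7 CPM in KO livers (log2 fold change -0.14, SE 0.089, edgeR adjusted p = 0.266, and -0.12 without KO liver 5, adjusted p = 0.319).

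Markers of other cells moved in the same livers. For KO against WT on CDA-HFD, 7.29% of all genes were lower and 8.19% higher. Of 12 macrophage markers, 4 were lower in KO livers on CDA-HFD and none was higher, and their summed level was 1999.9 to 4137 CPM in WT livers, 724 to 908 CPM in KO livers 1 to 4 and 2442 CPM in KO liver 5. Of the 9 stellate cell markers tested, 3 were lower and the sum was 1647 to 3061 CPM in WT livers. Of the 7 cholangiocyte markers tested, 0 passed, with a sum of 368 to 800.5 CPM in WT livers, and all 6 neutrophil markers tested were lower, with 32.0 to 68.9 CPM in WT livers versus 9.84 to 22.4 CPM in KO livers. The sum of 10 hepatocyte markers was 42250.2 to 86823 CPM in WT livers, 86917 to 126054 CPM in KO livers 1 to 4 and 45280.5 CPM in KO liver 5, and 1 of the 10 was higher in KO livers and none lower. For 9 endothelial and 9 tested lymphocyte markers 0 passed, with sums of 614 to 709 and 12.7 to 24.5 CPM in WT livers versus 579 to 971 and 10.6 to 30.8 CPM in KO livers, and the lymphocyte gene *Trbc2* was listed at 0 in all 20 livers. *Adgre1*, the macrophage gene for F4/80, was at 84.7 to 153 CPM in WT livers versus 40.4 to 89.0 CPM in KO livers, and *Pecam1*, the endothelial CD31, at 29.3 to 36.5 CPM versus 32.4 to 38.2 CPM. Without KO liver 5, 9 macrophage, 8 stellate cell, 6 cholangiocyte, 6 neutrophil and 1 lymphocyte markers were lower and 4 hepatocyte, 7 endothelial and 1 macrophage markers were higher. Of all genes, 21.8% were lower and 19.6% higher in that fit. The part of these markers in the member values was not tested.

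**Figure D2:**
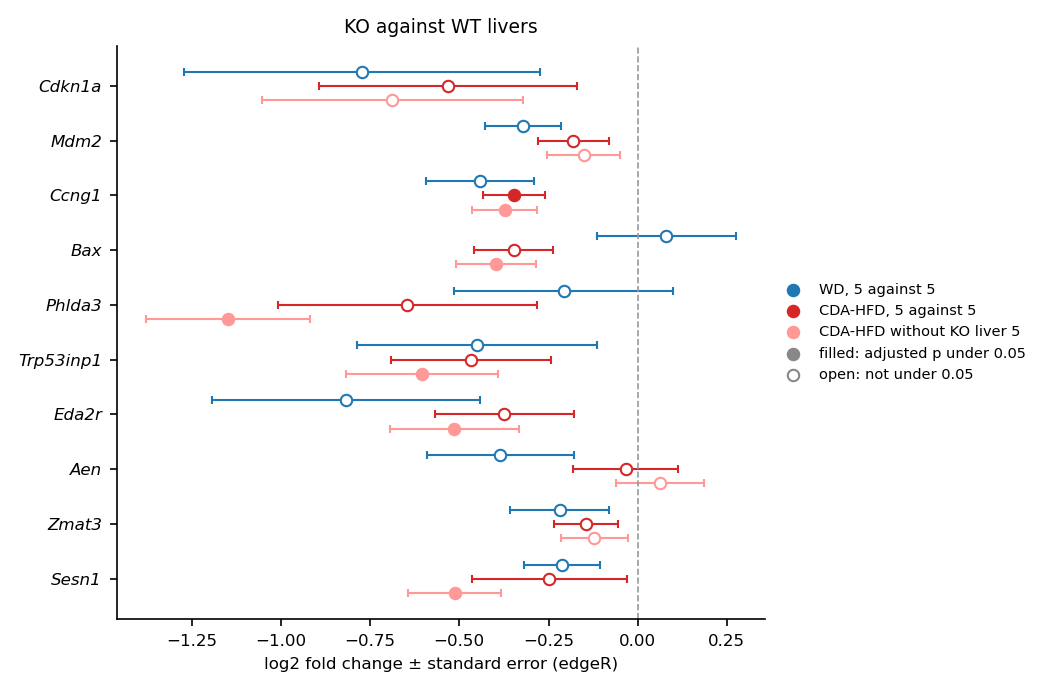
Log2 fold change of KO against WT livers for the 10 p53 target genes, with standard errors from edgeR. Blue points are WD, red points CDA-HFD with 5 livers a group and pink points CDA-HFD without KO liver 5. Filled points have an adjusted p under 0.05. Only *Ccng1* is filled with all livers, and 6 genes are filled without KO liver 5.

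All 20 livers entered a fit of the interaction between diet and KO, which asks whether the KO effect differed by diet. By edgeR, 0 of 10 members passed, where 0.556% of 17804 genes did, and 0 members had an unadjusted p under 0.05, against 15.4% of all genes. DESeq2 called 0 members, where it called 434 of 17804 genes. The largest difference in size was that of *Eda2r*, whose KO effect was less negative on CDA-HFD (log2 fold change 0.45, SE 0.45, edgeR adjusted p = 0.662). *Phlda3* had -0.43 (SE 0.51, edgeR adjusted p = 0.714), and *Bax*, positive on WD and negative on CDA-HFD, had -0.42 (SE 0.24, edgeR adjusted p = 0.394). For *Ccng1* the difference was 0.10 with a standard error of 0.18, so the effect that passed on CDA-HFD and not on WD was not shown to differ between them. Without KO liver 5, 11.9% of 17995 genes passed and still 0 of the 10 members, with -0.94 for *Phlda3* (adjusted p = 0.136 from edgeR) and -0.48 for *Bax* (adjusted p = 0.202). In the same fit, 4 macrophage, 2 stellate cell and 4 cholangiocyte markers passed as negative, and 1 hepatocyte and 4 endothelial markers as positive. With all livers 0 cell type markers passed in the interaction. Their part in the member values was not tested.

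CDA-HFD was set against WD within each vector to describe how the targets differed between the diets. In WT livers, *Phlda3*, *Bax* and *Sesn1* were higher on CDA-HFD, so 3 of the 10 members passed and all 3 were higher, where 51.1% of 16726 genes passed and 25.9% were higher. The median log2 fold change of the members was -0.041 against -0.0032 over all genes. Without adjustment 4 members had a p under 0.05, against 57.2% of all genes. In KO livers, 0 members passed by edgeR, where 17% of 16387 genes did. DESeq2 also called 0 members there, where it called 3658 of 16387 genes. Without adjustment 1 member had a p under 0.05 there, against 33.3% of all genes. Without KO liver 5 on CDA-HFD, 0 members passed there, where 17.4% of 16555 genes did, with 0.24 for *Mdm2* (adjusted p = 0.0851 from edgeR), 0.28 for *Phlda3* (0.571) and 0.054 for *Sesn1* (0.776).

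*Phlda3* rose from 3.41 ± 0.969 CPM to 8.04 ± 2.58 CPM in WT livers (SD, n = 5 each). It was at 3.06, 3.53, 2.88, 2.58 and 5.04 CPM in livers 1 to 5 on WD and, in the values given above, higher in every liver on CDA-HFD, without overlap, as were 19.3% of all genes (log2 fold change 1.22, SE 0.24, edgeR adjusted p = 0.00144, exact permutation p = 0.00794). The call held without any single liver, with a log2 fold change from 1.05 to 1.40. In KO livers it was at 3.50, 2.49, 5.22, 1.44 and 2.35 CPM on WD, and KO liver 5 on CDA-HFD alone lay above them (log2 fold change 0.79, SE 0.43, edgeR adjusted p = 0.215).

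*Bax* was at 12.6, 12.9, 10.1, 10.8 and 15 CPM in WT livers 1 to 5 on WD, and 3 of the 5 WT livers on CDA-HFD were above them all (log2 fold change 0.35, SE 0.12, edgeR adjusted p = 0.0270). Leaving out WT liver 3 or 4 on WD or WT liver 1 or 5 on CDA-HFD ended the call, with an adjusted p from 0.0503 to 0.0705. *Sesn1* was at 19.4, 22.0, 19.9, 22.7 and 17.8 CPM in WT livers on WD, with 4 of the 5 on CDA-HFD above them all (log2 fold change 0.35, SE 0.12, edgeR adjusted p = 0.0321). Its call ended without WT liver 1, 3 or 5 on WD or 1 or 3 on CDA-HFD, with an adjusted p from 0.0642 to 0.0823. Both were higher in 5 of 5 WT livers on CDA-HFD than the WT mean on WD.

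*Cdkn1a* went the other way without passing. Of the WT livers on CDA-HFD, 4 were below the WD mean and liver 5 was above it (log2 fold change -0.89, SE 0.38, edgeR adjusted p = 0.0668, exact permutation p = 0.119). It passed as lower without WT liver 1 on WD (adjusted p = 0.0207), without WT liver 5 on CDA-HFD (0.0111), by DESeq2 (0.0371), with the replicate number as a block (0.0255) and with no filter on low counts (0.0437), and over all livers left out in turn its log2 fold change ran from -1.25 to -0.63. Between the diets in KO livers it had -0.64 (SE 0.50, edgeR adjusted p = 0.402). *Ccng1* was also below the WD mean in 5 of 5 WT livers (log2 fold change -0.27, SE 0.14, edgeR adjusted p = 0.123), and passed without WT liver 1 on WD (adjusted p = 0.0238). *Mdm2* had the smallest adjusted p of the members in KO livers, with 3 KO livers on CDA-HFD above every KO liver on WD (log2 fold change 0.22, SE 0.088, edgeR adjusted p = 0.101).

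The other members did not pass in either vector. In WT livers their log2 fold changes were -0.016 for *Trp53inp1*, -0.38 for *Eda2r*, -0.066 for *Aen*, -0.12 for *Zmat3* and 0.072 for *Mdm2*, with adjusted p from 0.212 to 0.971 by edgeR. In KO livers *Sesn1* had 0.33 and *Bax* -0.065, with adjusted p of 0.304 and 0.852 by edgeR. Scaling by library size alone moved the median log2 fold change of all genes to 0.42 in WT and 0.25 in KO livers, with 9120 of 10690 calls higher in WT livers against 4335 of 8542 under TMM, so the direction of members near 0 depends on the scaling.

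Non-hepatocyte markers differed between the diets as well. In WT livers, 8 of 9 stellate cell, 6 of 7 cholangiocyte, 5 of 8 lymphocyte and 5 of 6 neutrophil markers tested were higher on CDA-HFD and none lower, while 8 of 12 macrophage markers were higher and 2 lower. Of all genes, 25.9% were higher and 25.2% lower in WT livers. The summed stellate cell level went from 263 to 815 CPM on WD to 1647 to 3061 CPM on CDA-HFD, and the cholangiocyte level from 39.2 to 169.8 to 368 to 800.5 CPM. Macrophage markers summed to 466 to 1449.7 CPM on WD. Of 10 hepatocyte markers 5 were lower, with 78317 to 123557 CPM on WD, and of 9 endothelial markers 6 were lower. In KO livers 6 macrophage, 2 stellate cell, 3 cholangiocyte, 4 lymphocyte, 1 endothelial and 1 neutrophil markers were higher on CDA-HFD, and 1 hepatocyte marker was lower. Of all genes, 9.19% were higher and 7.85% lower in KO livers. Without KO liver 5 on CDA-HFD, 1 stellate cell and 3 lymphocyte markers were higher, and the counts of the other types were unchanged. In that fit 17.4% of all genes passed in either direction. The part of these markers in the *Phlda3*, *Bax* and *Sesn1* values was not tested.

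**Figure D3:**
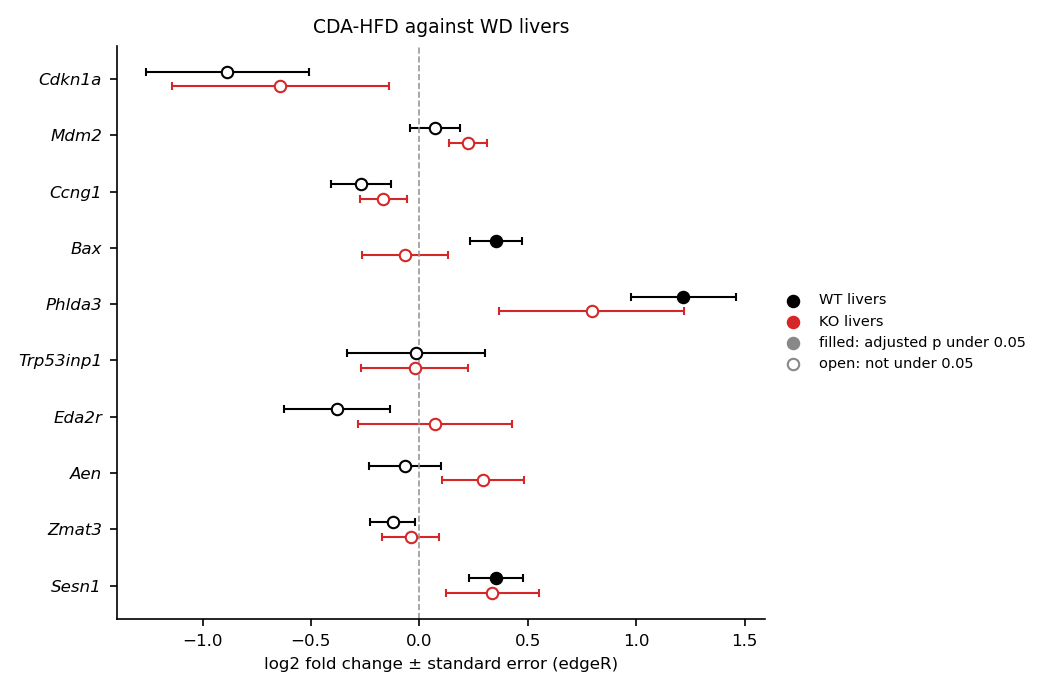
Log2 fold change of CDA-HFD against WD for the 10 p53 target genes in WT livers (black) and KO livers (red), with standard errors from edgeR. Filled points have an adjusted p under 0.05. *Phlda3*, *Bax* and *Sesn1* are filled in WT livers, and no gene is filled in KO livers.

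The mRNA of p53 itself was measured beside its targets. *Trp53* was at 23.1, 17.6, 16.9, 15.6 and 20.5 CPM in WT livers versus 20.7, 19.8, 20.9, 18.7 and 15.3 CPM in KO livers on WD, and these groups overlapped (log2 fold change 0.025, SE 0.12, edgeR adjusted p = 0.967). On CDA-HFD it was at 24.6, 25.4, 25.9, 24.7 and 29.2 CPM in WT livers versus 21.8, 22.7, 19.2, 17.9 and 22.7 CPM in KO livers, and every KO liver was below every WT liver. *Trp53* thus fell in KO livers on CDA-HFD (log2 fold change -0.32, SE 0.094, edgeR adjusted p = 0.0436). The log2 fold change ran from -0.35 to -0.27 with 1 liver left out, and the call was lost in each of these fits except that without KO liver 5, with an adjusted p from 0.0566 to 0.113. It rose on CDA-HFD in WT livers without overlap (log2 fold change 0.46, SE 0.11, edgeR adjusted p = 0.00443) and did not pass in KO livers (0.13, adjusted p = 0.475 from edgeR). The interaction was -0.34 with a standard error of 0.16 and an adjusted p of 0.308. *Mdm4*, the relative of Mdm2 that holds p53 inactive, passed in none of the 5 comparisons, with log2 fold changes from -0.0078 to 0.16.

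Of 25 genes that encode p53, its relatives and proteins that act on it, among them kinases, ubiquitin ligases and ribosomal proteins that bind Mdm2, 22 were tested. On WD, 0 passed by edgeR, where 0.0757% of all genes did, and DESeq2 also called 0, where it called 164 of 15848 genes. On CDA-HFD, 4 were lower in KO livers and 1 was higher, where 7.29% and 8.19% of all genes were, and without KO liver 5 these counts were 5 and 4, where 21.8% and 19.6% were. *Atr*, a kinase that signals replication stress to p53, was at 40.1 ± 3.41 CPM in WT livers versus 30.1 ± 3.30 CPM in KO livers (5 livers each, SD; log2 fold change -0.42, SE 0.093, edgeR adjusted p = 0.0192). *Rpl5*, a ribosomal protein that binds Mdm2, was lower too (log2 fold change -0.56, SE 0.14, edgeR adjusted p = 0.0285), and *Trp53bp2*, a cofactor that directs p53 to apoptosis genes, was higher (log2 fold change 0.36, SE 0.093, edgeR adjusted p = 0.0282). The 3 calls were lost without WT liver 3 or 5 or KO liver 1 or 3, that of *Atr* also without KO liver 2, that of *Rpl5* without WT liver 1 or KO liver 2 or 4 and that of *Trp53bp2* without WT liver 1, with adjusted p of up to 0.0577, 0.0774 and 0.0768 by edgeR. Between the diets, 5 were higher and 2 lower in WT livers, where 25.9% and 25.2% of all genes were, led by *Rpl5* (log2 fold change 0.62, adjusted p = 0.000486 from edgeR) and *Trp53bp1* (0.41, adjusted p = 0.00294), and 2 were higher and none lower in KO livers, where 9.19% and 7.85% of all genes were, *Daxx* (0.63, adjusted p = 0.00501) and *Chek1* (1.08, adjusted p = 0.0318), whose call was lost without any single KO liver on WD and without KO liver 2 on CDA-HFD (adjusted p of up to 0.0686). *Chek1* was at a low level there, with means of 0.792 CPM on WD and 1.70 CPM on CDA-HFD in KO livers. In the interaction 0 regulators passed, and 1 without KO liver 5, where 11.9% of all genes did.

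A further 40 genes that p53 can induce were set beside the 10 members. On WD, 0 of the 35 tested passed by edgeR and 2 by DESeq2, which called 164 of 15848 genes. On CDA-HFD, 4 of 38 were lower in KO livers and 4 were higher, where 7.29% and 8.19% of all genes were, with a median log2 fold change of -0.12. With KO liver 5 left out, 11 were lower and 9 higher, against 21.8% and 19.6% of all genes. Among the lower genes were *Pmaip1*, *Plk2* and *Tnfrsf10b*, named with *Ei24* and *Pank1* after their values were seen. In the opposite direction, *Xpc*, which recognizes DNA damage for excision repair, rose (log2 fold change 0.41, SE 0.084, edgeR adjusted p = 0.0154), as did *Fdxr*, the mitochondrial ferredoxin reductase (log2 fold change 0.53, SE 0.12, edgeR adjusted p = 0.0199), *Ei24* and *Pank1*. The call of *Fdxr* was lost without WT liver 3 or 5 or KO liver 1, 2 or 3 (adjusted p of up to 0.0581). By the same measures, the 10 members had 1 call, toward lower levels, and a median of -0.35. This wider list had calls in both directions, and the difference between the lists was not tested.

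Between the diets the wider list also had calls in both directions. In WT livers, 15 of 38 were lower and 7 higher on CDA-HFD, where 25.2% and 25.9% of all genes were. *Pank1*, a pantothenate kinase, fell from 395 ± 31.3 CPM to 148 ± 43.1 CPM (5 livers each, SD; log2 fold change -1.43, SE 0.18, edgeR adjusted p = 9.43e-05) and *Perp*, a membrane protein of cell junctions, fell as well (log2 fold change -0.92, SE 0.11, edgeR adjusted p = 6.13e-05), while *Ak1*, an adenylate kinase, rose from 0.852 ± 0.440 CPM to 8.04 ± 4.06 CPM (5 livers each, SD; log2 fold change 3.22, SE 0.42, edgeR adjusted p = 9.86e-05). In KO livers 7 were lower and 4 higher, where 7.85% and 9.19% of all genes were, led by *Pank1* (log2 fold change -0.89, SE 0.12, edgeR adjusted p = 0.000693), *Tap1* (0.94, adjusted p = 0.00177) and *Fas* (-0.62, adjusted p = 0.0101). In the interaction 0 of 38 passed by edgeR and 3 by DESeq2, which called 434 of 17804 genes. In the fits without KO liver 5, 5 of 38 passed in the interaction, where 11.9% of all genes did. In KO livers between the diets 7 were then lower and 3 higher, where 17.4% of all genes passed in either direction.

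p53 also lowers cell cycle genes through p21, which keeps the DREAM complex on their promoters. Of 21 such genes, 8 of the 20 tested were lower in KO livers on CDA-HFD and none higher, where 7.29% and 8.19% of all genes were, with a median log2 fold change of -0.65. With KO liver 5 left out, 10 were lower and 1 higher, against 21.8% and 19.6% of all genes. *Mki67*, the proliferation marker, was at 47.2 ± 5.32 CPM in WT livers versus 22.8 ± 5.51 CPM in KO livers (5 livers each, SD; log2 fold change -1.05, SE 0.16, edgeR adjusted p = 0.00831), and *Bub1* (log2 fold change -1.83, SE 0.23, edgeR adjusted p = 0.00445) and *Ccnb2* (log2 fold change -0.83, SE 0.15, edgeR adjusted p = 0.0122) were lower too. On WD, *Mcm5*, a subunit of the replicative helicase, was the only one of 17 that passed (log2 fold change -1.72, SE 0.24, edgeR adjusted p = 0.0281), and the call held only without WT liver 3 or KO liver 5, with an adjusted p of up to 0.118 without any of the other 8. Between the diets, 13 of 19 were higher and 2 lower in WT livers, where 25.9% and 25.2% of all genes were, led by *Ccnb2* (1.17, adjusted p = 0.00127 from edgeR) and *Bub1b* (1.05, adjusted p = 0.00250), with *Tk1* lower (-0.90, adjusted p = 0.000681). In KO livers 12 of 17 were higher and none lower, with or without KO liver 5 on CDA-HFD, where 9.19% and 7.85% of all genes were with all livers, led by *Mcm5* (1.20, adjusted p = 0.00158 from edgeR), *Top2a* (1.43, adjusted p = 0.00288) and *Mki67* (1.32, adjusted p = 0.00297). In the interaction 0 of 20 passed, also without KO liver 5. The neutrophil, macrophage and stellate cell values given above moved in the same livers, and their part here was not tested.

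Within groups, single livers stood high or low across many members at once. WT liver 5 on WD was the highest of its group for 7 of the 10 members, WT liver 5 on CDA-HFD for 7, KO liver 5 on CDA-HFD for 6 and KO liver 1 on WD for 5. KO liver 4 on WD was the lowest of its group for 6 members, and WT liver 1 on WD for 5. *Sesn1* often went against this: it was lowest of its group in WT liver 5 on both diets and highest of its group in KO liver 4 on WD. After each group's mean was subtracted, the 45 pairs of members had a median Pearson r of 0.43 over the 20 livers and 37 were positive, against a median of -0.0039 between a member and each of the other genes ranked.

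To describe this, log2 CPM values (prior count 2) were centred on each group's mean and *Cdkn1a* was compared with the 9 other members over the 20 livers, with p from 100000 permutations within groups and Benjamini-Hochberg adjustment over the 9 relations. None passed. The closest were *Zmat3* (Pearson r = 0.62, permutation p = 0.0230, adjusted 0.101, and Spearman rho = 0.62, permutation p = 0.0115, adjusted 0.0520) and *Trp53inp1* (Pearson r = 0.56, permutation p = 0.0247, adjusted 0.101, and Spearman rho = 0.64, permutation p = 0.00813, adjusted 0.0520). Without KO livers 4 and 1 on WD, the farthest from the median of *Cdkn1a*, r was 0.40 for *Zmat3* and 0.77 for *Trp53inp1* over 18 livers. Within the diets, r was 0.62 on WD and 0.62 on CDA-HFD for *Zmat3*, and 0.53 and 0.62 for *Trp53inp1* (10 livers each). *Sesn1* had the lowest value, with r = -0.084 (permutation p = 0.713) and rho = -0.17 (permutation p = 0.474), and *Mdm2* had r = 0.65 on WD and 0.051 on CDA-HFD.

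**Figure D4:**
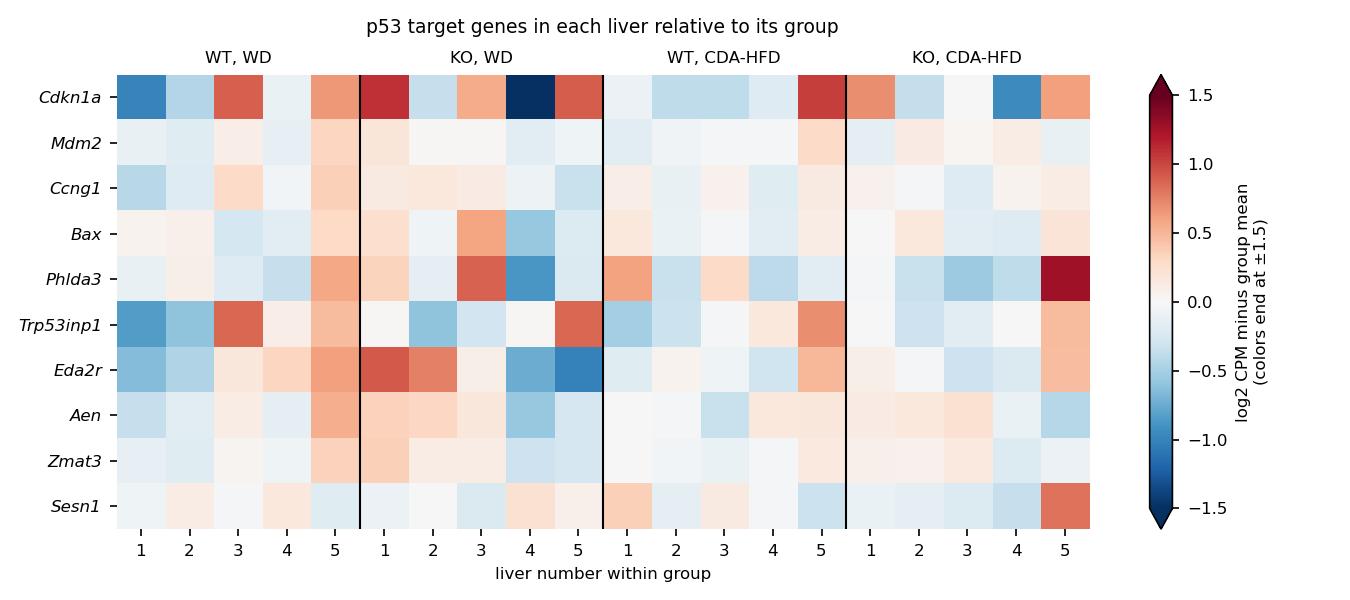
Deviation of each p53 target gene from its group's mean in each of the 20 livers, on the log2 CPM scale (prior count 2), with livers in columns and genes in rows. Red is above and blue below the group mean. WT liver 5 on either diet is red for most genes, KO liver 4 on WD is blue for most genes, and *Phlda3* and *Sesn1* are deep red in KO liver 5 on CDA-HFD.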

How the data were processed

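RNA was extracted from 20 mouse livers and sequenced. The authors deposited 1 table of raw counts of reads per gene, with 1 column per liver. The genome build mm10 is from the submitters' processing notes, and the aligner, counter and strand setting are not given in the sources used here. The labels and the study's methods name different library kits. Reads on genes were 11697049 to 16827147 per liver. Tallies of reads without a gene (50.3 to 57.0% of all reads listed) were left out. Counts of the 40 pairs of livers within groups differed by at least 6.95 times sampling noise, so none is a copy.

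The counts were filtered with filterByExpr, scaled with TMM and tested with edgeR 4.0.16 (glmQLFit and glmQLFTest, limma 3.58.1) in R 4.3.3, with Benjamini-Hochberg adjustment over all genes tested and a threshold of 0.05. Fits held the 10 livers of the 2 groups compared, or all 20 for the interaction. DESeq2 1.42.0, RLE and library-size scaling, no filter, at least 10 counts in every library, the replicate number as a block, all 20 livers in 1 fit and each liver left out in turn were alternatives. Fitting steps were tested on simulated data. Permutation tests, promoter searches and correlations used Python 3.11.15 and scipy 1.17.1, and plots matplotlib 3.10.9.

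The members and lists were chosen with earlier results of these data known. Named are all members, *Cideb*, *Trp53*, *Mdm4*, the first gene of each marker list, up to 3 called genes with the smallest adjusted p from each list and comparison, and the 5 genes most like *Cdkn1a* and the members' mean. 1 gene that this rule names is not reported here. The lists were other p53 targets, p53 regulators, DREAM-repressed genes, family relatives and markers of 7 cell types.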

Additional observations from a re-analysis of the deposited data

Results flagged for a closer look

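In groups of 5 livers, the gap between the highest or lowest liver and its nearest neighbor was divided by the range of the group and compared with Dixon's 95% critical value of 0.71. Of 180 groups examined, 23 exceeded it, where chance gives about 1 in 20, or 9. Of the 40 groups of the members, 4 did.

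In WT liver 5 on CDA-HFD, *Cdkn1a* was at 34.6 CPM against 12.8 to 15.7 CPM in the other 4 livers (ratio 0.868), and *Mdm2* was at 67.2 CPM against 48.7 to 54.0 CPM (ratio 0.71). *Trp53* itself was at 29.2 CPM in this liver against 24.6 to 25.9 CPM (ratio 0.715), and *Chek1*, a checkpoint kinase gene, at 6.18 CPM against 2.75 to 3.37 CPM (ratio 0.821). This liver had the most reads of all 20.

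In KO liver 5 on CDA-HFD, *Phlda3* was at 11.2 CPM against 3.06 to 4.46 CPM (ratio 0.827) and *Sesn1* at 37.0 CPM against 16.5 to 19.6 CPM (ratio 0.852). The same liver was far above its group for *Col1a1*, a collagen gene of stellate cells (886 CPM against 123 to 227 CPM, ratio 0.863), *Krt19*, a keratin of cholangiocytes (14.9 CPM, ratio 0.778), *Ak1* (14 CPM, ratio 0.896) and *Rpl5* (72.4 CPM, ratio 0.903), and far below it for *Perp* (44.6 CPM, ratio 0.770).

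The remaining gaps concerned single genes of the other lists. On WD, *Ak1* (ratio 0.780) and *Krt19* (0.819) stood high in KO liver 3, *Krt19* in WT liver 5 (0.787), *Bub1b* in KO liver 1 (0.719), *Chek1* in KO liver 2 (0.761), and *S100a8* (0.863), a neutrophil gene, and *Trp53bp2* (0.812) in KO liver 5, while *Bid* stood low in KO liver 5 (0.850) and *Pank1* low in WT liver 1 (0.828) and KO liver 1 (0.713). On CDA-HFD, *Rpl5* stood high in WT liver 1 (0.711) and *Chek1* in KO liver 4 (0.774). The gap of *Chek1* on WD was small and at a low level, 0.933 CPM against 0.736 to 0.783 CPM.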

How the results depend on the processing

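The count of members past the threshold stayed at 0 on WD and in the interaction under every alternative run. For KO against WT on CDA-HFD it was 1 with all livers, 2 with DESeq2, 2 with at least 10 counts in every library, 0 with no filter, 0 with all 20 livers in 1 fit, and 0 to 6 with 1 liver left out. The highest count was that without KO liver 5. For CDA-HFD against WD in WT livers it was 3, against 5 with library size only, which added *Mdm2* (0.50, adjusted p = 0.00390 by edgeR) and *Zmat3* (0.31, adjusted p = 0.0359) as higher, 1 with all 20 livers in 1 fit and 1 to 4 with 1 liver left out. In KO livers it was 0, and 1 with library size only, *Mdm2* (0.46, adjusted p = 0.0161 by edgeR). Calls over all genes ran from 1 of 16206 to 164 of 15848 on WD. In the interaction they ran from 8 of 17804 to 2138 of 17995. For KO against WT on CDA-HFD they were 2664 of 17204, with 4146 of 17204 by DESeq2 and 2604 of 15019 with at least 10 counts. They were 2070 of 34585 with no filter and 4170 of 17804 with all 20 livers. With 1 liver left out they ran from 709 of 17623 to 7201 of 17411. Scaling by library size alone moved the median log2 fold change of all genes to 0.42 and 0.25 in the diet comparisons, -0.19 for KO against WT on CDA-HFD and -0.15 in the interaction. Calls toward higher levels were then 3371 of 3924 in KO livers between diets, against 1506 of 2792, and 517 of 1709 for KO against WT on CDA-HFD, against 1409 of 2664. In WT livers between diets, calls over all genes were 8542 of 16726, against 10690 of 16726 with library size only. They were 8548 of 17804 with all 20 livers in 1 fit and 7549 of 16856 to 8723 of 17123 with 1 liver left out.

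Same-numbered livers' deviations correlated at -0.37 to 0.35. The values were 0.21 to 0.35 for livers numbered 4 and -0.37 to -0.11 for livers numbered 3. Whether the numbers mark more than an order was not tested. With the replicate number as a block, the members called were 0 on WD, 1 on CDA-HFD, 0 in the interaction, 4 between diets in WT and 0 in KO livers. The block gave calls over all genes of 2 of 15848 on WD, 2459 of 17204 on CDA-HFD and 8 of 17804 in the interaction. Between diets it gave 8343 of 16726 in WT and 2044 of 16387 in KO livers.

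Several values that were not called with TMM reversed their direction. Under library size only these were, for KO against WT, *Trp53* on WD (-0.0074) and *Mdm4* on CDA-HFD (-0.076), in the interaction *Ccng1* (-0.091), *Mdm2* (-0.039), *Mdm4* (-0.041) and *Zmat3* (-0.11), between diets in WT livers *Aen* (0.37), *Ccng1* (0.17), *Eda2r* (0.064), *Trp53inp1* (0.44) and *Zmat3* (0.31), and in KO livers *Bax* (0.19), *Ccng1* (0.083), *Trp53inp1* (0.26) and *Zmat3* (0.20). *Trp53inp1* between diets was 0.029 in WT livers with at least 10 counts in every library, and 0.058 in WT livers versus 0.036 in KO livers with the block. With 1 liver left out, values ran on WD from -0.098 to 0.19 for *Bax*, -0.077 to 0.052 for *Mdm4* and -0.033 to 0.11 for *Trp53*, and on CDA-HFD from -0.11 to 0.062 for *Aen*. In the interaction they ran from -0.040 to 0.62 for *Cdkn1a*, -0.30 to 0.072 for *Sesn1*, -0.27 to 0.26 for *Trp53inp1* and -0.023 to 0.17 for *Zmat3*. Between diets they ran in WT livers from -0.16 to 0.096 for *Aen*, -0.0050 to 0.080 for *Mdm4* and -0.22 to 0.23 for *Trp53inp1*, and in KO livers from -0.19 to 0.11 for *Bax*, -0.13 to 0.32 for *Eda2r*, -0.17 to 0.25 for *Trp53inp1* and -0.12 to 0.049 for *Zmat3*. The cause was not tested. The lower *Trp53* in KO livers on CDA-HFD did not pass with library size only (adjusted p = 0.0585 by edgeR), no filter (0.0984) or the block (0.0622).

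List counts that moved by over 1.5 times were, on WD, the DREAM-repressed genes (1, against 5 with DESeq2, 2 with no filter or all 20 livers in 1 fit, and 0 with library size only or the block) and the other p53 targets (0, against 2 with DESeq2). On CDA-HFD they were the regulators (5, against 2 with no filter or the block), the other p53 targets (8, against 5 with library size only) and the relatives (1, against 2 with DESeq2 or library size only and 3 with all 20 livers in 1 fit). The calls over all genes on WD were 12 of 15848, against 164 of 15848 with DESeq2 and 38 of 33547 with no filter. They were 26 of 17804 with all 20 livers, 8 of 15848 with library size only and 2 of 15848 with the block. On CDA-HFD the calls over all genes were 2664 of 17204, against 4146 of 17204 with DESeq2 and 1709 of 17204 with library size only. They were 2070 of 34585 with no filter, 2459 of 17204 with the block and 4170 of 17804 with all 20 livers. In the interaction DESeq2 called 3 other targets and 1 regulator, against 0, where it called 434 of 17804 genes and edgeR 99. Between diets the regulators went from 7 to 17 in WT and from 2 to 6 in KO livers with library size only, and in KO livers to 1 with no filter, with at least 10 counts or with the block and to 4 with all 20 livers. The relatives in KO livers went from 2 to 4 with library size only or the block and to 5 with all 20 livers. The list counts without KO liver 5 on CDA-HFD were added after seeing the data.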

Other observations

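Family relatives of the members, 25 genes such as other inhibitors of cyclin-dependent kinases and other Bcl-2 proteins, were measured beside them. On WD, 0 of 21 passed by edgeR, and in the interaction 0 of 23. On CDA-HFD, *Phlda1*, which shares the pleckstrin homology domain of *Phlda3*, was the only one of 23 that passed and was higher in KO livers, at 17.4 ± 4.23 CPM in WT livers versus 77 ± 60.1 CPM in KO livers (5 livers each, SD; log2 fold change 2.14, standard error 0.44, adjusted p = 0.0162 from edgeR). Every KO liver was above every WT liver. Without KO liver 5, 2 were higher and 5 lower, where 19.6% and 21.8% of all genes were, and in the interaction 3 of 23 passed, where 11.9% of all genes did. Between the diets in WT livers, 7 of 21 were higher and 4 lower on CDA-HFD, where 25.9% and 25.2% of all genes were. *Phlda1* fell there (log2 fold change -1.63, adjusted p = 0.000118 from edgeR) while *Phlda3* rose. *Bcl2*, the inhibitor of Bax-type pore proteins, rose (1.19, adjusted p = 0.000372 from edgeR), as did *Cdkn2c*, the kinase inhibitor p18 (1.01, adjusted p = 0.000851 from edgeR). Without KO liver 5 on CDA-HFD, 2 relatives were higher and 3 lower in KO livers between the diets, where 17.4% of all genes passed in either direction. With all KO livers 1 of 21 was higher and 1 lower, against 9.19% and 7.85% of all genes. There *Cdkn2c* rose (1.02, adjusted p = 0.0113 from edgeR) and *Bid*, a pro-apoptotic BH3 protein, fell (-0.50, adjusted p = 0.0331 from edgeR), a call lost without KO liver 1, 2, 3 or 4 on WD or 2 or 3 on CDA-HFD, with an adjusted p of up to 0.0742.

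Among 11027 genes whose log2 CPM averaged 2 or more, those most like *Cdkn1a* over the 20 livers, after subtraction of each group's mean, were *Tfcp2l1* (r = 0.84, rho = 0.82), *Kdm4a* (r = 0.82, rho = 0.79), *Sesn2* (r = 0.80, rho = 0.81), *Mt2* (r = 0.79, rho = 0.83) and *Plin5* (r = 0.78, rho = 0.69). Those most like the mean of the 10 members were *Abl2* (r = 0.86, rho = 0.88), *Rhbdf2* (r = 0.86, rho = 0.80), *Loxl4* (r = 0.85, rho = 0.86), *Ankrd13a* (r = 0.83, rho = 0.83) and *Exoc4* (r = 0.82, rho = 0.87). These values are descriptions over livers, and all genes of a liver share its depth and scaling.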
